A study of Mus musculus with 2 samples.

Results

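The phagocyte NADPH oxidase is described here through 5 genes, Cybb, Cyba, Ncf1, Ncf4 and Rac2, out of 32285 genes in the count files. They were chosen by symbol, whatever their values, and each symbol names 1 row of the files. Mice carried tumours grown from 4T1 cells, an established mouse mammary carcinoma line, after 1000000 cells in Matrigel and saline had been placed in the mammary fat pad. One group then received beta-elemene intraperitoneally every day at 30 mg/kg for 18 days, and the vehicle group received normal saline in equal volume. The sources used here do not give strain, age, or the number of mice behind each library. Single-cell RNA was counted in 1 library per group, so every difference between the libraries has no replicate check, carries no p-value and cannot be told apart from a difference between 2 samples or 2 preparations.

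The oxidase makes superoxide, the starting point of the respiratory burst with which neutrophils, monocytes and macrophages kill microbes and signal to their neighbours. Its catalytic core sits in a membrane and is built from the Cybb protein, which carries electrons from NADPH to oxygen, and its partner Cyba. The core is idle until a cytosolic complex that includes the Ncf1 and Ncf4 proteins docks on it together with the small GTPase Rac2 or Rac1. Loss of Cybb, Cyba, Ncf1 or Ncf4 causes chronic granulomatous disease in people.

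Vehicle held 11324 barcodes with a median of 11878.5 UMIs (unique molecular identifiers, each standing for 1 captured RNA molecule), and beta-elemene 11539 with a median of 9682. After filters and removal of called doublets, 10465 and 10546 cells were used. The libraries shared 37 barcodes, 28 of them among the cells used. Cells were clustered anew and clusters were named from marker lists, so a class called neutrophil, monocyte, macrophage and so on below means a cluster group like that cell type. Summed over its cells, each of those 3 classes had UMIs of all its own markers in both libraries: 10 of neutrophils, 7 of monocytes and 8 of macrophages. This is a low bar, as UMIs of all 8 macrophage markers were also counted in neutrophils. Neutrophils numbered 1126 in vehicle and 1776 in beta-elemene, monocytes 681 and 763, and macrophages 2709 and 2848. Median depth differed widely between the classes, at 1910 and 1984 UMIs per neutrophil, 7732 and 7707 per monocyte, and 12430 and 10947.5 per macrophage. Levels are therefore given as CPM, the UMIs of a gene scaled to 1000000 UMIs of its class, and all values run vehicle first, beta-elemene second.

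On the mm10 build Cybb spans chrX:9435252-9487771, Cyba chr8:122424776-122432930, Ncf1 chr5:134220053-134229625 and Rac2 chr15:78559167-78572783, all on the minus strand. Ncf4 lies at chr15:78244801-78262580 on the plus strand. Cyba overlaps Gm20388 and Ncf1 overlaps Gtf2ird2, each on the opposite strand. Of the 50-base words in the last 500 bases of their transcripts, where a 3′ library reads, none of Cybb, Ncf4 or Rac2 recurred in another gene, 17 of 832 did for Cyba and 7 of 1889 for Ncf1.

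RefSeq promoter entries (GRCm38.p6) matched 3 of the 5 genes. The Cybb entry lies inside the gene span given above, whose minus-strand start is at 9487771, so the 2 annotations place the start differently. The Ncf1 and Cyba entries lie just outside their spans. The 100 bases before each start are shown because Cybb and Ncf1 UMIs lay largely in myeloid cells, while Cyba was counted at over 200 CPM in every class compared. Capitals mark CCAAT, or GGGCGG on either strand, motifs chosen after the sequences had been read.
Cybb, chrX:9469325-9469424, minus strand: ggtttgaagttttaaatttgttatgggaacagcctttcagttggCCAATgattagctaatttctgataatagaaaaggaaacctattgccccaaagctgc
Ncf1, chr5:134229626-134229725, minus strand: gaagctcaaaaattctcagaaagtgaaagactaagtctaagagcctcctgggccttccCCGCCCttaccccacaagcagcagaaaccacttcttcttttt
Cyba, chr8:122432941-122433040, minus strand: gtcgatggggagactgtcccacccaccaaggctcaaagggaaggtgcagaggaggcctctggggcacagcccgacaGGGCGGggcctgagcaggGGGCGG
Over 250 bases before the start, Cyba had 2 matches of GGGCGG, Ncf1 had 1 and Cybb none, and 32.7% of the 32851 promoter windows of that length held the motif. Cybb had the only match of CCAAT among the 3, a motif held by 33.8% of windows. GAGGAA, only 1 form of the sites bound by factors of the PU.1 family, had no match in these windows on either strand, against 23.3% of all windows. Other forms were not searched for, so this does not show that such sites are absent. The shorter GGAA, on one strand or the other, occurs in the bases shown of all 3 genes. The same stretch was 34.0% G and C with 1 CpG for Cybb, 54.4% with 2 for Ncf1 and 60.0% with 6 for Cyba, beside a median of 6 CpGs over all windows.

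Across the tumour, the oxidase genes were largely phagocyte genes. Neutrophils, monocytes and macrophages together held 94.5% and 95.8% of all Cybb UMIs, 89.2% and 91.9% of Ncf1, 91.4% and 92.5% of Ncf4, and 79.2% and 79.2% of Rac2. Cyba was the broad member, with 57.7% and 62.4% of its UMIs in those 3 classes. Macrophages alone held most UMIs of Cybb, at 75.8% and 73.9%, and neutrophils 2.50% and 2.79%. Such shares follow the number and depth of the cells as well as the level of the gene. All genes together had 2555805 and 4080388 UMIs in neutrophils, 6159278 and 7044774 in monocytes and 34612433 and 32931011 in macrophages. Malignant cells had 93918154 and 80551728.

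**Figure D1:**
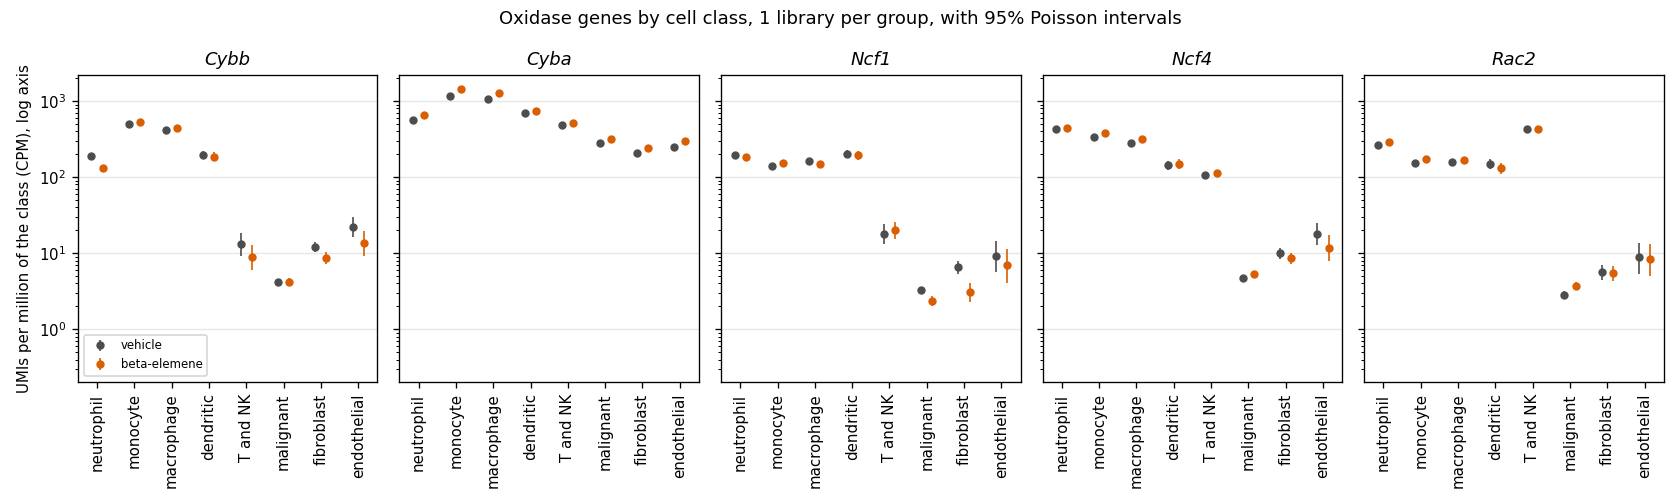
CPM of the 5 oxidase genes (log axis) in 8 cell classes, 1 point per library with its 95% Poisson interval for counting error. Cybb was highest in monocytes and macrophages, Ncf4 in neutrophils and Rac2 in T and NK cells, while Cyba stayed above 200 CPM in all classes.

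Among the 8 classes compared, Cybb, the electron-carrying subunit, had its highest level in monocytes, at 504 CPM in vehicle and 527 in beta-elemene. Macrophages followed at 421 and 436, then dendritic-like cells at 194 and 185 and neutrophils at 188 and 133. In vehicle the last 2 classes did not differ beyond their counting intervals. The macrophage level was 2.24 times that of neutrophils in vehicle (95% interval 2.04 to 2.45) and 3.28 times in beta-elemene (3.01 to 3.59), intervals that cover counting error only. The fold was larger, at 4.30 and 6.89, as a mean over cells, and 4.33 and 6.75 in cells thinned to 1000 UMIs. T and NK cells stood at 13.2 and 8.93 CPM, endothelial cells at 22.3 and 13.6, fibroblasts at 11.9 and 8.64, and malignant cells at 4.18 and 4.23.

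Cyba, the membrane partner that stabilises Cybb, ran in a similar order with a much higher floor. It was counted at 1165 and 1450 CPM in monocytes, 1048 and 1268 in macrophages, 702 and 750 in dendritic cells, and 572 and 654 in neutrophils. T and NK cells had 483 and 510 CPM. Malignant cells, which had almost no Cybb, still held 285 and 319 CPM of Cyba, endothelial cells 251 and 294, and fibroblasts 209 and 240. The macrophage level of Cyba was 3.68 and 3.98 times the malignant level, against 101 and 103 times for Cybb.

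Ncf1, the organizer that brings the cytosolic complex to the membrane, lay between 141 and 200 CPM in the 4 myeloid classes compared. It was at 195 and 184 CPM in neutrophils, 141 and 155 in monocytes, 161 and 149 in macrophages and 200 and 194 in dendritic cells. T and NK cells had 18.0 and 20.0 CPM and malignant cells 3.26 and 2.37. The neutrophil level exceeded the macrophage level by 1.21 times (interval 1.10 to 1.33) and 1.23 times (1.14 to 1.33).

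Ncf4, which binds a phosphoinositide of the phagosome membrane, was highest in neutrophils among the 8 classes, at 428 and 446 CPM, then in monocytes, at 335 and 378, and in macrophages, at 277 and 315. Dendritic cells held 142 and 149, T and NK cells 105 and 113, and malignant cells 4.77 and 5.34. Neutrophils exceeded macrophages by 1.54 times (1.45 to 1.64) in vehicle and 1.41 times (1.35 to 1.49) in beta-elemene.

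Rac2, a small GTPase of blood cells that also moves the actin skeleton, was highest in T and NK cells among the 8 classes. T and NK cells had 435 and 435 CPM, neutrophils 262 and 292, monocytes 152 and 175, macrophages 160 and 170, and dendritic cells 149 and 130. T and NK cells exceeded neutrophils by 1.66 times (1.51 to 1.83) and 1.49 times (1.38 to 1.61). Monocytes and macrophages did not differ beyond their counting intervals in either library. Malignant cells had 2.82 and 3.75 CPM. Rac1, the widely used relative of Rac2, stood at 320 and 342 CPM in neutrophils, 293 and 324 in monocytes and 265 and 284 in macrophages.

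The order of the classes was also read at equal depth. With every cell thinned at random to 1000 UMIs and shallower cells left out, at least 1 Cybb UMI was found in 5.83% (exact binomial 95% interval 4.46 to 7.47) of 995 vehicle neutrophils and 3.97% (3.07 to 5.05) of 1586 beta-elemene neutrophils. The same share was 38.3% and 35.4% of monocytes and 30.7% and 32.5% of macrophages. In malignant cells, which should lack the gene, it was 0.347% and 0.619%, at median depths before thinning of 20369 and 21054.5. The thinned neutrophil share left out 131 and 190 cells. Unthinned, the Cybb shares were 9.77% and 7.21% of neutrophils, 81.6% and 84.9% of monocytes and 84.4% and 83.2% of macrophages.

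The cytosolic genes showed no such gap in neutrophils. At 1000 UMIs, Ncf4 was found in 33.6% and 34.4% of neutrophils, 24.4% and 30.9% of monocytes and 22.5% and 25.1% of macrophages. Ncf1 was found in 15.4% and 13.7% of neutrophils, and in 373 of 2664 and 362 of 2776 macrophages, and Rac2 in 16.0% and 20.9% against 14.3% and 14.7%. Of T and NK cells, 35.4% and 31.8% had a Rac2 UMI. Cyba was found in 36.3% and 39.8% of neutrophils, 63.9% and 71.0% of monocytes and 59.5% and 65.6% of macrophages. The malignant shares were 0.248% and 0.186% for Ncf1, 0.571% and 0.433% for Ncf4, 0.447% and 0.371% for Rac2, and 22.3% and 25.9% for Cyba. At this depth, UMIs of at least 3 of the 5 genes met in 7.64% and 8.07% of neutrophils, 14.6% and 20.3% of monocytes, and in 347 of 2664 and 411 of 2776 macrophages. In malignant cells that happened in 1 of 4031 and 0 of 3233 cells.

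**Figure D2:**
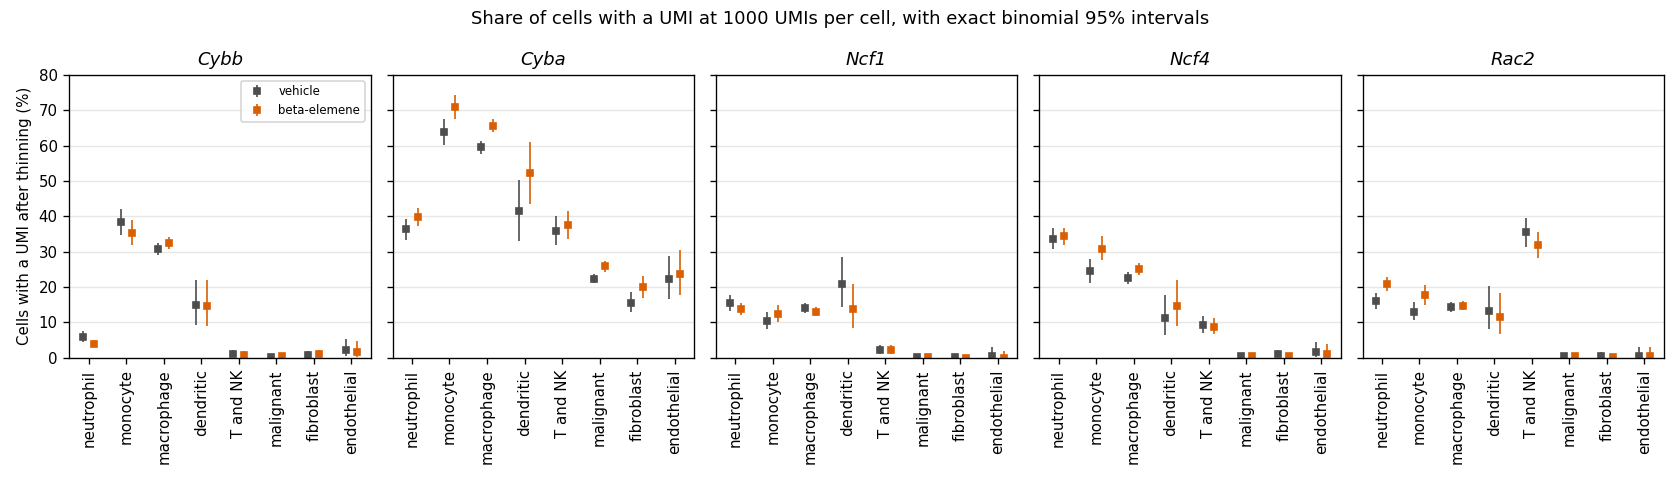
Share of cells with at least 1 UMI of each oxidase gene after thinning each cell to 1000 UMIs, by class and library, with exact binomial 95% intervals. Cybb shares of neutrophils were 5.83% and 3.97%, far below the 30.7% to 38.3% of monocytes and macrophages, whereas Ncf4 was found in more neutrophils than macrophages.

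Within neutrophils, Cybb was concentrated in very few cells. A cluster of 18 cells in each library, 1.60% and 1.01% of the class, led by the secondary-granule genes Ngp, Camp and Ltf, held 261 of 481 Cybb UMIs in vehicle (54.3%) and 339 of 542 in beta-elemene (62.5%). Those genes are made by neutrophils that are still filling their granules. Its Cybb level was 1258 and 1598 CPM, and its median depth of 11052 and 10141.5 UMIs was far above that of the other neutrophils. Cells with 5 or more Cybb UMIs numbered 16 of 1126 and 22 of 1776, and held 67.2% and 69.2% of the class's Cybb UMIs. Ngp stood at 26306 and 30337 CPM in this small cluster, Cebpe, a factor of granule-stage neutrophils, at 135 and 207, and the division gene Mki67 at 106 and 250. C1q genes of macrophages were at 1.00% and 1.05% of their macrophage level there, and Csf1r, the macrophage growth factor receptor, at 24.1 and 4.72 CPM. Of monocyte markers, Ly6c2 was at 173 and 212 CPM, against 97.7 and 162 in monocytes, and Ccr2 at 0 and 4.72, against 473 and 473. Of neutrophil markers, Csf3r was at 159 and 151 CPM and Retnlg at 5431 and 2933. The largest neutrophil cluster had 924 and 864 of Csf3r and 3743 and 4444 of Retnlg.

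The other neutrophils had low RNA levels of Cybb and higher RNA levels of the other 4 genes. Protein and oxidase activity were not measured here. The largest cluster, led by S100a9, S100a8, G0s2 and Retnlg, held 708 and 1100 cells with Cybb at 118 and 62.4 CPM. In the same cells Cyba stood at 578 and 667 CPM, Ncf1 at 204 and 184, Ncf4 at 463 and 492 and Rac2 at 282 and 339. A cluster of 400 and 658 cells led by Cstdc4 and Stfa2l1 after the S100 genes was lower for each gene, with Cybb at 42.6 and 30.6 CPM, Cyba at 331 and 379, Ncf1 at 124 and 128, Ncf4 at 302 and 293 and Rac2 at 81.2 and 102. In the Ngp cluster the other 4 genes were also at their highest, with Cyba at 1393 and 2065 CPM, Ncf1 at 386 and 505, Ncf4 at 607 and 736 and Rac2 at 757 and 797.

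RNA of macrophage genes was counted in neutrophils too, and its part in their Cybb was not tested. In the largest cluster the summed C1q genes were at 3.39% and 2.15% of their macrophage level, and the same shares of the macrophage Cybb level would be 14.3 and 9.37 CPM. Among its 190 and 319 cells without any macrophage marker UMI, Cybb stood at 73.3 and 48.5 CPM.

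**Figure D3:**
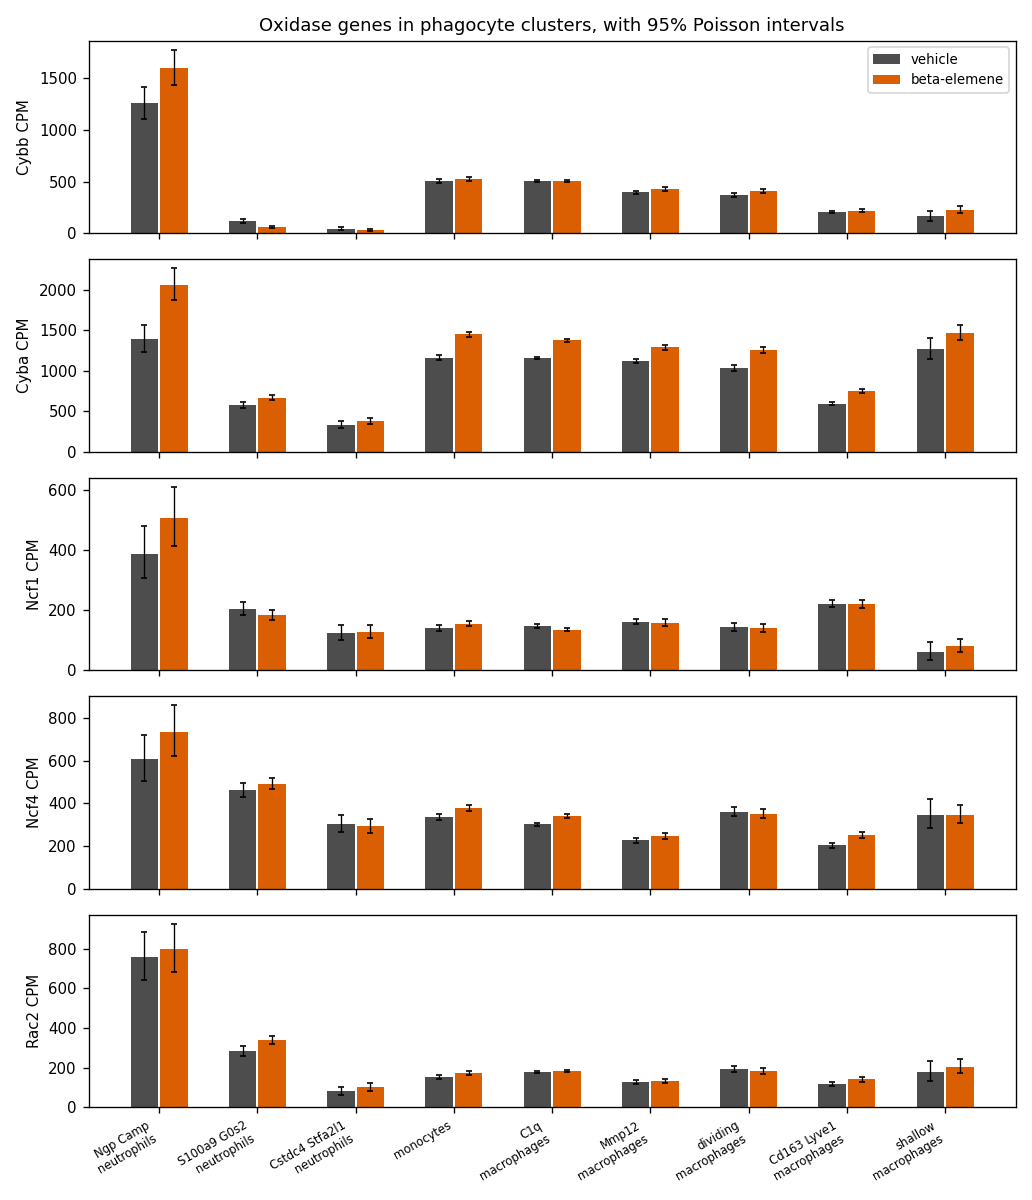
CPM of the 5 oxidase genes in 3 neutrophil clusters, the monocyte cluster and 5 macrophage clusters, with 95% Poisson intervals, as bars from 0 on a separate axis per gene. Cybb reached 1258 and 1598 CPM in the Ngp and Camp neutrophils and stayed at or below 118 CPM in the other 2 neutrophil clusters, while Ncf4 stayed near 300 CPM or above in all 3.

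Macrophages were not uniform either. The main cluster, led by C1q genes and Apoe, held 1375 and 1493 cells with Cybb at 508 and 504 CPM. Cells led by Ccl8, Cd163, Selenop and Lyve1, markers of resident-type macrophages, had 204 and 220 CPM, and the lowest Cyba of the macrophage clusters, at 594 and 753. Their Ncf1, in contrast, was the highest among macrophages at 221 and 219 CPM, against 147 and 135 in the main cluster. Cells led by Mmp12, with Arg1 among their leading genes, had Cybb at 398 and 426 CPM, and a cluster with Mki67 at 671 and 603 CPM had Cybb at 370 and 410. A shallow cluster with a median of 1871 UMIs had Cybb at 165 and 227 CPM and Ncf1 at 59.5 and 81.2. That shallow cluster made up 4.02% of vehicle and 9.97% of beta-elemene macrophages.

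Between the libraries, the oxidase genes stayed within 1.5-fold in phagocytes. A gene was counted as past the fold when its ratio of beta-elemene to vehicle was at least 1.5 or at most 0.667 and its counting interval excluded 1. None of the 5 genes passed in neutrophils (4.13% of all genes measured there did), monocytes (3.15%) or macrophages (2.38%). Such shares over all genes cover genes with at least 100 UMIs in both libraries together in the class. The median log2 ratio of the 5 genes was 0.06, 0.18 and 0.09 in these classes, beside -0.02, 0.01 and -0.02 over all genes measured. The same held in dendritic cells (7.49%), T and NK cells (4.52%) and malignant cells (6.46%). In fibroblasts (4.35% of genes passed in either direction and 2.46% as lower) Ncf1 passed as lower, at 6.53 and 3.08 CPM, a ratio of 0.472 (0.324 to 0.679) from 94 and 46 UMIs. In endothelial cells (4.83%, and 1.9% as lower) Cybb passed as lower, at 22.3 and 13.6 CPM, a ratio of 0.609 (0.375 to 0.977) from 48 and 31 UMIs. Those UMIs fall short of the 100 that the shares over all genes require. All 8 macrophage markers were detected in both classes, summing to 570 and 493 CPM in fibroblasts and 775 and 898 in endothelial cells, and their part in these values was not tested. Beside these, malignant cells had 3.26 and 2.37 CPM of Ncf1 and 4.18 and 4.23 of Cybb. With 10 CPM added to both libraries, 0 of the 5 genes passed in either class, and without the endothelial cell with most Cybb UMIs 0 passed there. As 10 CPM exceeds both fibroblast levels of Ncf1, adding it could hardly leave a 1.5-fold difference for that gene. As a mean over cells, Ncf4 passed in endothelial cells as lower and Cybb did not. For that setting the interval of the summed UMIs was scaled to the new ratio and not computed anew. Unscaled, the Ncf4 interval was 0.385 to 1.09 and held 1, so these calls rest on the scaling.

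**Figure D4:**
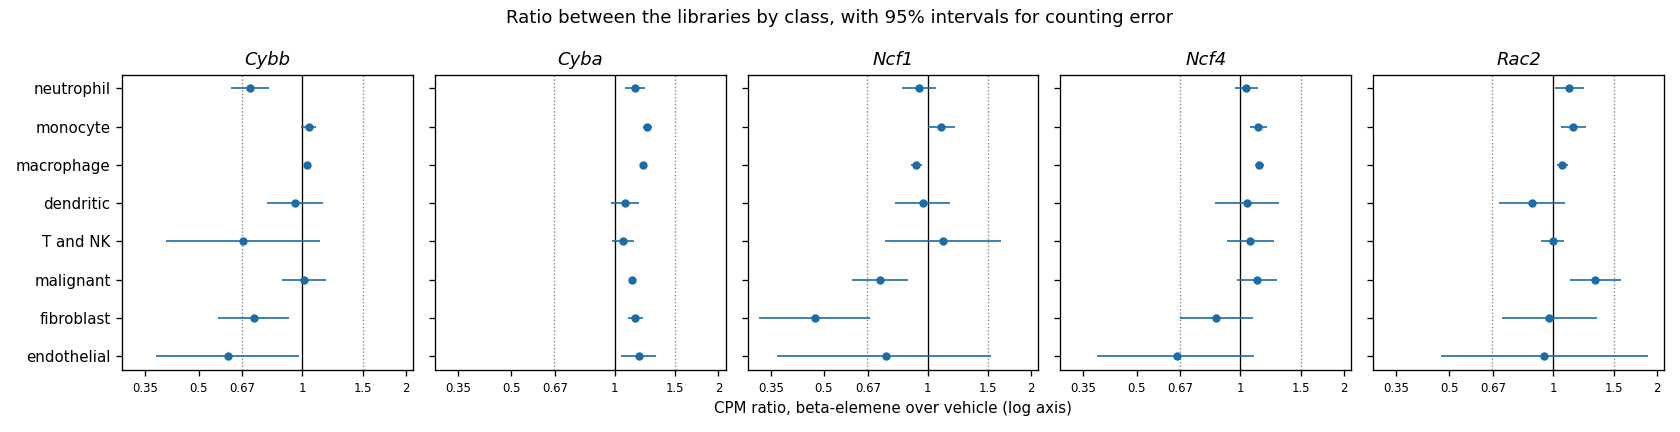
Ratio of CPM in beta-elemene over vehicle for each oxidase gene and class (log axis), with exact 95% intervals for counting error. The solid line is a ratio of 1 and the dotted lines are 0.667 and 1.5. Cyba lies right of 1 in all 8 classes and Cybb lies at 0.706 in neutrophils and 1.04 in monocytes and macrophages.

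Cyba was the one member whose ratio was above 1 in all 8 classes compared, from 1.06 in T and NK cells to 1.24 in monocytes. The interval excluded 1 in 6 of them and held 1 in dendritic cells and in T and NK cells, where 2 of 14 other ways of processing in each class turned the ratio below 1. In T and NK cells 1 of these was free RNA subtraction, at 0.963. That setting takes the malignant level as free RNA. As malignant cells had Cyba at 285 and 319 CPM, it is a poor check for this gene. In those 6 classes the interval excluded 1 for 21.0% (endothelial cells) to 55.1% (malignant cells) of all genes measured. In macrophages the ratio was 1.21 (1.19 to 1.23), in neutrophils 1.14 (1.07 to 1.22) and in malignant cells 1.12 (1.10 to 1.14). It was also above 1 in each of the 3 neutrophil and 5 macrophage clusters. All of these ratios rest on the same 2 libraries, and none reached 1.5.

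Cybb in neutrophils had a ratio of 0.706 (0.623 to 0.800), the lowest of any member in the 3 phagocyte classes. It passed the fold as a mean over cells (0.632), in cells thinned to 1000 UMIs (0.661) and without the Ngp cluster (0.560). Without that cluster and the cell with most Cybb UMIs in each library it was 0.717 (0.580 to 0.888). The ratio lay on opposite sides of 1 by cluster. It was 1.27 (1.08 to 1.499) in the Ngp cluster, from 18 cells per library, and 1.47 (1.22 to 1.77) without the top cell of each. In the cluster led by Cstdc4 and Stfa2l1 it was 0.718, with an interval that held 1 (0.435 to 1.19). In the largest cluster it was 0.530 (0.428 to 0.657), and Cybb passed as lower beside 5.49% of genes in either direction and 3.47% as lower. A single vehicle cell held 55 of the 188 Cybb UMIs of that cluster. Without the cell with most UMIs in each library the ratio there was 0.713 (0.563 to 0.905), short of the fold. The share of its cells with a Cybb UMI was 10.5% (8.30 to 12.9) and 7.64% (6.14 to 9.37), intervals that overlap. Among cells without macrophage marker UMIs the ratio was 0.662 (0.381 to 1.16). Summed macrophage markers in neutrophils were at 801 and 680 CPM, with all 8 detected in both libraries. Summed monocyte markers were at 457 and 585.

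In neutrophils the other ratios were 0.944 for Ncf1 (0.842 to 1.06), 1.04 for Ncf4 (0.966 to 1.12) and 1.12 for Rac2 (1.01 to 1.23). In monocytes all 5 ratios were above 1, with Cybb at 1.04 (0.996 to 1.10), Ncf1 at 1.10 (1.00 to 1.20), Ncf4 at 1.13 (1.07 to 1.20) and Rac2 at 1.15 (1.05 to 1.25). Summed monocyte markers in that class were at 1848 and 2370 CPM, a ratio of 1.28. In macrophages Cybb was at 1.04 (1.01 to 1.06), Ncf4 at 1.14 (1.11 to 1.17), Rac2 at 1.06 (1.02 to 1.10) and Ncf1, the one below 1, at 0.928 (0.893 to 0.965). Summed macrophage markers in the class had a ratio of 1.24. The part of these marker differences in the results was not tested.

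The rest of the pathway also stayed within the fold. A further 4 lists were followed, of other oxidase genes, of receptors and signals that switch the oxidase on, of enzymes that remove or use superoxide and peroxide, and of transcription factors known for oxidase genes. No gene of these lists passed the fold in neutrophils, monocytes or macrophages. For these lists, measured means at least 50 UMIs in both libraries together.

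Of 14 other oxidase genes, 3 were measured in neutrophils, 4 in monocytes and 7 in macrophages, with median log2 ratios of 0.01, 0.09 and -0.01. Cybc1, a chaperone of the membrane core, named after its values were seen, was at 15.7 and 23.3 CPM in monocytes, a ratio of 1.48 (1.14 to 1.92), just under the fold, and at 23.3 and 23.0 in macrophages. Hvcn1, the proton channel that balances the charge moved by the oxidase, also chosen with its values known, was at 14.9 and 12.3 CPM in macrophages.

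Of the 30 receptors and signals, 29 were matched by symbol and 28 were measured in neutrophils, with 20 below a ratio of 1 and a median log2 ratio of -0.14, beside -0.02 over all genes there. In monocytes 15 of 29 were above 1, with a median of 0.04, and in macrophages 13 of 29, with a median of -0.03. Fcer1g, the shared chain through which Fc receptors signal, was at 1993 and 2344 CPM in neutrophils, 1640 and 1941 in monocytes and 1464 and 1795 in macrophages. Its ratios were 1.18, 1.18 and 1.23. Fcgr3, a low-affinity receptor for IgG, had ratios of 1.18, 1.03 and 1.06.

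Of the enzymes that handle superoxide and peroxide, 17 of 23 were measured in neutrophils, 20 in monocytes and 21 in macrophages. Their median log2 ratios were 0.04, 0.11 and 0.00. Prdx5, a peroxiredoxin, was at 1322 and 1636 CPM in neutrophils, 946 and 1232 in monocytes and 724 and 900 in macrophages, with ratios of 1.24, 1.301 and 1.24. Txn1, which hands electrons to peroxiredoxins, had ratios of 1.15, 1.18 and 1.18.

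Of 10 transcription factors, 6 were measured in neutrophils and 8 in each of the other 2 classes, with median log2 ratios of 0.18, 0.22 and 0.17. Cebpb, a factor of inflammatory myeloid cells, was at 3499 and 4735 CPM in neutrophils, 1157 and 1467 in monocytes and 733 and 910 in macrophages, with ratios of 1.35, 1.27 and 1.24. Spi1, which encodes PU.1, a master factor of myeloid cells, had ratios of 1.07, 1.13 and 1.11. Outside the phagocytes, measured genes of the lists also passed the fold, and they are named here after their values were seen. Tlr2, Plcg2 and Txnrd1 were lower and Prkcb higher in dendritic cells. Plcg2 was higher and Pak1 lower in T and NK cells. Duox1, Fpr1 and Gpx3 were lower in malignant cells, and Btk and Prkcb were lower in fibroblasts. Itgam and Gpx3 were lower and Plcg2 higher in endothelial cells. Summed markers of other cell types also differed between the libraries in some of these classes. In dendritic cells, macrophage markers summed to 2217 and 1156 CPM and neutrophil markers to 631 and 839. In T and NK cells, neutrophil markers summed to 858 and 287 CPM and macrophage markers to 539 and 493. Their part in these calls was not tested. Of all genes with at least 100 UMIs, a higher minimum than that of the lists, 7.49%, 4.52%, 6.46%, 4.35% and 4.83% passed in these 5 classes.

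Likeness was read over 42 points, 21 clusters in each of 2 libraries, and 11450 genes. Only clusters with at least 50 cells in each library entered. The Ngp neutrophils, 18 cells per library, were therefore left out. They had Cybb at 1258 and 1598 CPM but Csf1r at 24.1 and 4.72 CPM. Among the clusters used, Pearson r of log2(CPM + 1) was highest for Cybb with Csf1r (0.97), Mpeg1 (0.97) and Clec4n (0.97). Ncf1 was closest to Plek (0.98), Pirb (0.96) and Efhd2 (0.96). Ncf4 was closest to Snx20 (0.97), Arhgap9 (0.97) and AB124611 (0.97), and Rac2 to Arhgap9 (0.98), Bin2 (0.98) and Coro1a (0.98). The nearest genes to Cyba were Ctsc (0.92), Ucp2 (0.91) and Lair1 (0.90). Between members r was 0.94 for Ncf1 with Ncf4, 0.93 for Ncf4 with Rac2, 0.83 for Cybb with Cyba and 0.58 for Cybb with Rac2. Points of one library share its preparation and depth, so these values describe the clusters and carry no p.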

How the data were processed

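Single-cell RNA of 1 vehicle and 1 beta-elemene tumour library was analysed from the deposited matrices, whose values are raw UMI counts of each gene in each barcode. Cell Ranger 7.1.0 made them, per the file headers. The submitters' processing notes name Cell Ranger, STAR and mm10. Annotation release, intron counting and cell calling are not given in the sources used here. Per the labels' protocols, tumours were dissociated enzymatically, strained and loaded with a droplet kit that reads 3′ ends.

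Barcodes with at least 200 genes and at most 20% mitochondrial UMIs were kept, 10803 and 10861, and 338 (3.13%) and 315 (2.90%) doublets, called against simulated doublets, were removed. Both libraries were clustered together in Python 3.11.15 with scanpy 1.11.5 and leidenalg 0.10.2, on 2000 variable genes without the oxidase and pathway genes, 30 principal components, 15 neighbours and resolution 1, with unclear clusters split at 0.6. A cluster was named when at least 3 fixed markers were detected and no other class led its genes. The dendritic cluster also held the plasma cell markers Jchain and Mzb1. Mast-like cells, 98 and 33, and pericyte-like cells, 38 and 38, were below the minimum of 100 per library and were not compared.

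UMIs were summed per class and library and scaled to CPM. Ratios have exact conditional Poisson intervals and shares exact Clopper-Pearson intervals, both at 95% and for counting error only. For the mean over cells, the interval of the summed UMIs was scaled to the new ratio. The code was tested on simulated counts. Lists were described by counts and medians. The rule for named genes took all 5 members, list genes past 1.5-fold in the 3 phagocyte classes (none), the 2 most abundant of each list there (1 of them is not reported here), and the 3 genes most like each member. Members and lists were chosen with earlier results of these data known. Positions come from a GENCODE annotation of mm10, which may not be the release used for counting. Alternatives covered clustering, cell filters, doublets, scaling, free RNA and depth.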

Additional observations from a re-analysis of the deposited data

Results flagged for a closer look

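The Cybb ratio of beta-elemene to vehicle lay below 1 in neutrophils, at 0.706, and above 1 in macrophages, at 1.04, with counting intervals that exclude 1 on opposite sides. The macrophage Cybb ratio was 0.992 in the most common macrophage cluster alone. The Ncf1 ratio lay above 1 in monocytes, at 1.10, and below 1 in macrophages, at 0.928, also with intervals on opposite sides. With 1 library per group the difference between classes was not tested in either case.

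Mast-like cells, led by the protease genes Mcpt2, Mcpt1 and Tpsab1, entered no comparison but had oxidase UMIs above the malignant level. Cybb stood there at 719 CPM in vehicle and 265 in beta-elemene, from 101 UMIs in 98 cells and 19 in 33 cells. Ncf1 stood at 683 CPM in vehicle and 349 in beta-elemene, from 96 and 25 UMIs. The median depth of these cells was 669 and 684 UMIs. At a finer clustering resolution 23 and 17 cells kept the name, and in these Cybb had 8 and 1 UMIs, or 87.3 and 16.0 CPM. The other cells fell in unnamed clusters, 55 and 7 in one led by Retnlg and G0s2, with 76 and 5 Cybb UMIs, and 20 and 9 in one led by Retnla and F5, with 17 and 13. The values of the whole cover all 3 sets of cells.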

How the results depend on the processing

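No paired analysis was possible because each group has 1 library and the groups share a single replicate number. No replicate could be left out for the same reason. The number of oxidase genes past the fold in each class was the same under the clustering, filter and scaling alternatives not named here. In neutrophils the count became 1, Cybb, as a mean over cells, thinned to 1000 UMIs, in the most common cluster alone and without the Ngp cluster, an alternative chosen after seeing the data. It was 0 when the cell with most Cybb UMIs was left out as well, also chosen then. In dendritic cells it became 2 with each library clustered alone, and in malignant cells 1, Ncf1, in the most common cluster alone. In fibroblasts it was 0 with 10 CPM added or thinned and 3 with free RNA subtracted. The 10 CPM exceeded the fibroblast Ncf1 level and, thinned, 2 and 0 fibroblasts held an Ncf1 UMI, so neither setting could well keep that call. In endothelial cells the count was 0 with doublets kept, 10 CPM added, thinned or without the top cell, and 2 with free RNA subtracted. As a mean over cells it was 1, but the gene was Ncf4, at a ratio of 0.416 with a scaled interval, in place of Cybb. The endothelial Cybb ratio turned to 1.05 with doublets kept. The monocyte Cybb ratio, 1.04, was 0.913 thinned to 1000 UMIs. The causes were not tested.

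The macrophage over neutrophil fold of Cybb, 2.24 and 3.28, was 4.30 and 6.89 as a mean over cells, 4.33 and 6.75 thinned, and 4.32 and 8.07 between the most common clusters. It was 2.62 and 3.82 without mitochondrial, ribosomal and haemoglobin genes, 2.55 and 3.59 without the top cell, 4.49 and 8.31 without the Ngp cluster, and 5.98 and 8.65 when its top cell was also left out. Free RNA could not be subtracted in malignant cells, which set its level. The Cybb share of monocytes, 38.3% and 35.4% at 1000 UMIs, was 49.8% and 53.3% at 2000. In endothelial cells the members other than Cyba had 16 to 48 UMIs per library.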

Other observations

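An unnamed cluster of 51 and 42 cells led by Acp5, Ctsk and Atp6v0d2, genes of osteoclasts, held Cybb at 151 and 97.6 CPM, Ncf4 at 196 and 146, and Rac2 at 210 and 253. Nox4, an oxidase of the same family that needs Cyba but no cytosolic complex, was counted mainly outside the phagocytes. It stood at 78.5 and 70.2 CPM in endothelial cells, 24.0 and 32.6 in fibroblasts and 6.38 and 7.60 in malignant cells, against 12 and 16 UMIs in all macrophages. Its fibroblast ratio was 1.36 (1.18 to 1.56). Nox4 was on the list of other oxidase genes and is named here after its values were seen.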
